A study of Homo sapiens with 26 samples.

Results

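The S100 proteins are small calcium-binding proteins, and 9 of their genes were followed here across 9 human breast cancer lines: S100A2, S100A3, S100A4, S100A6, S100A10, S100A11, S100A13, S100A16 and S100P. They were chosen by gene symbol from the deposited expression table, which holds 33562 genes, and all 9 reached 1 RPKM in at least 2 libraries and entered the tests. RPKM is the number of reads scaled by transcript length and library total, so levels can be set side by side between genes. The study compared RNA from lines in which Aurora A kinase (AURKA), a mitotic kinase, was directed to the cytoplasm, to the nucleus or to neither. A log2 difference below is on the scale log2(RPKM + 1). There 1 unit is a doubling for genes well above 1 RPKM, and a doubling of a lower gene shows as less than 1 unit.

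All lines were made from MDA-MB-231Luc, a form of MDA-MB-231, which is an established line of triple-negative breast carcinoma. They carried the vector pLUTZ mRFP and grew in doxycycline, which switches on the cDNA in that vector. The 3 control lines are Empty, NES-Empty and NLS-Empty; they have no AURKA cDNA, carry the guide sgCon and were at passages 19 to 20. The 6 AURKA lines are clones at passages 32 to 35. WT-AURKA c1 and c2 carry AURKA cDNA without a signal, and NES-AURKA c1 and c2 carry it with a nuclear export signal; all 4 are labelled MUT2 and sgAURKA2. NLS-AURKA c2 and c3 carry it with a nuclear localization signal and are labelled MUT1 and sgAURKA1. WT-AURKA c2 has 2 libraries and every other line has 3, which makes 26 in all. Guide, passage and clonal origin differ between AURKA and control lines, and guide and cDNA label differ between NLS-AURKA and the other clones, so none of these can be told apart from the comparison they accompany. Separate cultures are not stated for the libraries within a line, so their spread may be technical.

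S100 proteins carry EF-hand motifs, act mostly as dimers, and on binding calcium expose a surface that takes hold of target proteins such as annexins, cytoskeletal proteins and p53. Some are also released from cells and bind the receptor AGER (RAGE) or TLR4. Most of their genes sit side by side in a cluster on chromosome band 1q21, whereas S100P is on chromosome 4. Several members, S100A4 and S100P above all, are known for their link to motility and metastasis in carcinoma.

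The DNA upstream of 4 members is shown because 3 of them, S100A4, S100A3 and S100A2, are neighbours whose transcripts were low in the same lines, and S100P had the widest range of all 9. The sequences are from RefSeq on build GRCh38.p14, whereas the expression table was made on hg19, and all 9 members matched an entry there. In the 250 bases before each start, 4 motifs were searched on both strands, and they do not overlap in the stretches shown. These are the TATA box core TATAAA, the AP-1 core TGANTCA, the E-box CAGGTG and the GC box GGGCGG, picked after the windows had been seen. They are in capitals, read on the gene's strand or, for CAGGTG, also as its complement. Bases in exons of other annotated transcripts are left out, apart from 30 bases around a TATAAA match.
S100A4, chr1:153545886-153546056, minus strand: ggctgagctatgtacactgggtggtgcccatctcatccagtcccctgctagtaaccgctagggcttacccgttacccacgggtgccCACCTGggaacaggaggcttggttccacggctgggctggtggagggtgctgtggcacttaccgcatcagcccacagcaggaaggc
S100A4, chr1:153545820-153545849, minus strand: gcctggctggggTATAAAtaggtcagacct
S100A3, chr1:153549373-153549508, minus strand: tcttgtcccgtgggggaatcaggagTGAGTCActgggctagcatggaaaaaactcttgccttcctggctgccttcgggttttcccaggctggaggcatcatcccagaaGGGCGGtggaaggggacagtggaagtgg
S100A2, chr1:153565866-153566094, minus strand: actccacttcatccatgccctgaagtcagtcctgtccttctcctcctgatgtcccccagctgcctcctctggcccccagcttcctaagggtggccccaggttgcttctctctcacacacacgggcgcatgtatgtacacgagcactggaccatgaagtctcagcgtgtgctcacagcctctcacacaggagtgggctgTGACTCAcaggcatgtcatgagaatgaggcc
S100P, chr4:6693838-6693867, plus strand: atgaggctgcctTATAAAgcaccaagaggc

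TATAAA began 31 bases before the start of S100A4 and 28 before that of S100P. It was present in the windows of 3 of the 9 members, S100A13 being the other, and in 10.7% of all 35116 RefSeq windows of this length. TGANTCA began 225 bases before the start of S100A3 and 52 before the first of the S100A2 starts; 2 of 9 members and 6.57% of all windows held it. CAGGTG was in the windows of 4 members and 17.5% of all, and GGGCGG in those of 6 members and 42.6% of all. A member counted if any of its windows held the motif, and the 9 members had 13 windows. These counts of members are therefore not on the same footing as the shares of single windows. The windows of S100A4, S100A3, S100A2 and S100P held 3 to 7 CG pairs, against a median of 11 over all windows, 24 in the windows of S100A6 and S100A10, 15 in that of S100A11 and 8 to 15 in those of S100A13. Those of S100A16, the member with the narrowest range, held 1 and 6. These matches describe letters only.

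Library letters in the titles fall into a set A to H, with 1 library of every line but WT-AURKA c2, and a set I to Z with the other 18. Estimated depth was 12200000 to 20300000 reads or read pairs per library, so 1 RPKM on a 500-base transcript stood for about 6.1 to 10.2 reads. In the 8 lines with both sets, S100A2, S100A4, S100A6, S100A10, S100A11, S100A13 and S100A16 were lower in the A to H library in 8 of 8, S100A3 in 6 and S100P in 5, with median log2 differences from -0.21 for S100P to -1.29 for S100A2. Over all tested genes the same difference had a median of -0.49 for genes whose longest transcript is under 1000 bases and 0.31 for those of at least 6000, and the members' longest transcripts measure 594 to 2184 bases. The part of this in the results was not tested, so values for libraries I to Z alone stand beside some of them. AURKA itself was at 34.0 to 68.9 RPKM in control libraries, 15.5 to 37.0 in NES-AURKA, 38.4 to 104.6 in NLS-AURKA and 12.7 to 14.3 in 4 of 5 WT-AURKA libraries. It counts endogenous and cDNA transcript together, so it does not check the guide. Library D of WT-AURKA c1 stood apart at 84.1 RPKM. AURKA also varied within other lines. Among others, NLS-AURKA c2 had 56.5, 104.6 and 38.4 RPKM in H, W and X, and NLS-AURKA c3 76.5, 38.8 and 40.3 in B, Y and Z. NES-AURKA c2 had 36.7, 15.5 and 21.5 in A, U and V. Libraries A and D also departed from their lines in S100P and S100A4, so calls that change without them are given. Whether their labels are right was not tested.

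Of 9 genes checked for the identity of the line, VIM was at 234.4 to 1059 RPKM, CD44 at 32.2 to 69.4 and ERBB2 at 2.24 to 5.06, with ESR1 and PGR at most at 0.022 and 0.012, as known for MDA-MB-231. The epithelial genes KRT18 and KRT19 were at 65.3 to 222 and 73.9 to 220.2 RPKM. EPCAM, another epithelial gene, was at 7.11 to 15.3 RPKM in control libraries and 1.44 to 3.87 in the clones. CDH1, which MDA-MB-231 is known to lack, was at 15.5, 9.04 and 3.14 RPKM in control libraries C, G and E, at 0.37 to 1.501 in the other control libraries and at 0.62 or less in the clones. EPCAM (-1.96), CDH1 (-1.49) and KRT19 (-0.33) were called lower in AURKA than in control lines, as S100P was, and the part of this in the S100P result was not tested. Of the markers of other cell types, 5 of 6 leukocyte and 3 of 4 fibroblast genes stayed under 1 RPKM in every library, and the summed leukocyte list reached 2.0 RPKM at most. The 4 endothelial markers summed to 2.52 to 4.55 RPKM in NLS-AURKA and 0.44 to 1.53 elsewhere, of which KDR reached 4.08, and their part in the results was not tested. Of 6 keratinocyte markers 3 were in the table; they summed to 6.76 to 21 RPKM, with KRT10 the only gene above 1 RPKM.

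S100A6 was the most abundant of the 9, with a mean over the 26 libraries of 1319 RPKM, the fifth highest of 12589 tested genes. S100A11 (322 RPKM) and S100A10 (167.6) followed, then S100A16 (76.9), S100A4 (74.1), S100P (57.9), S100A13 (17.2), S100A2 (12.6) and S100A3 (5.00). The order by range between lines was different. S100P spanned 6.46 log2 units between its lowest and highest line, S100A4 3.62, S100A2 2.47 and S100A3 1.46, and the other 5 spanned 0.68 to 1.23. S100P thus had the widest range and S100A16 the narrowest.

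**Figure D1:**
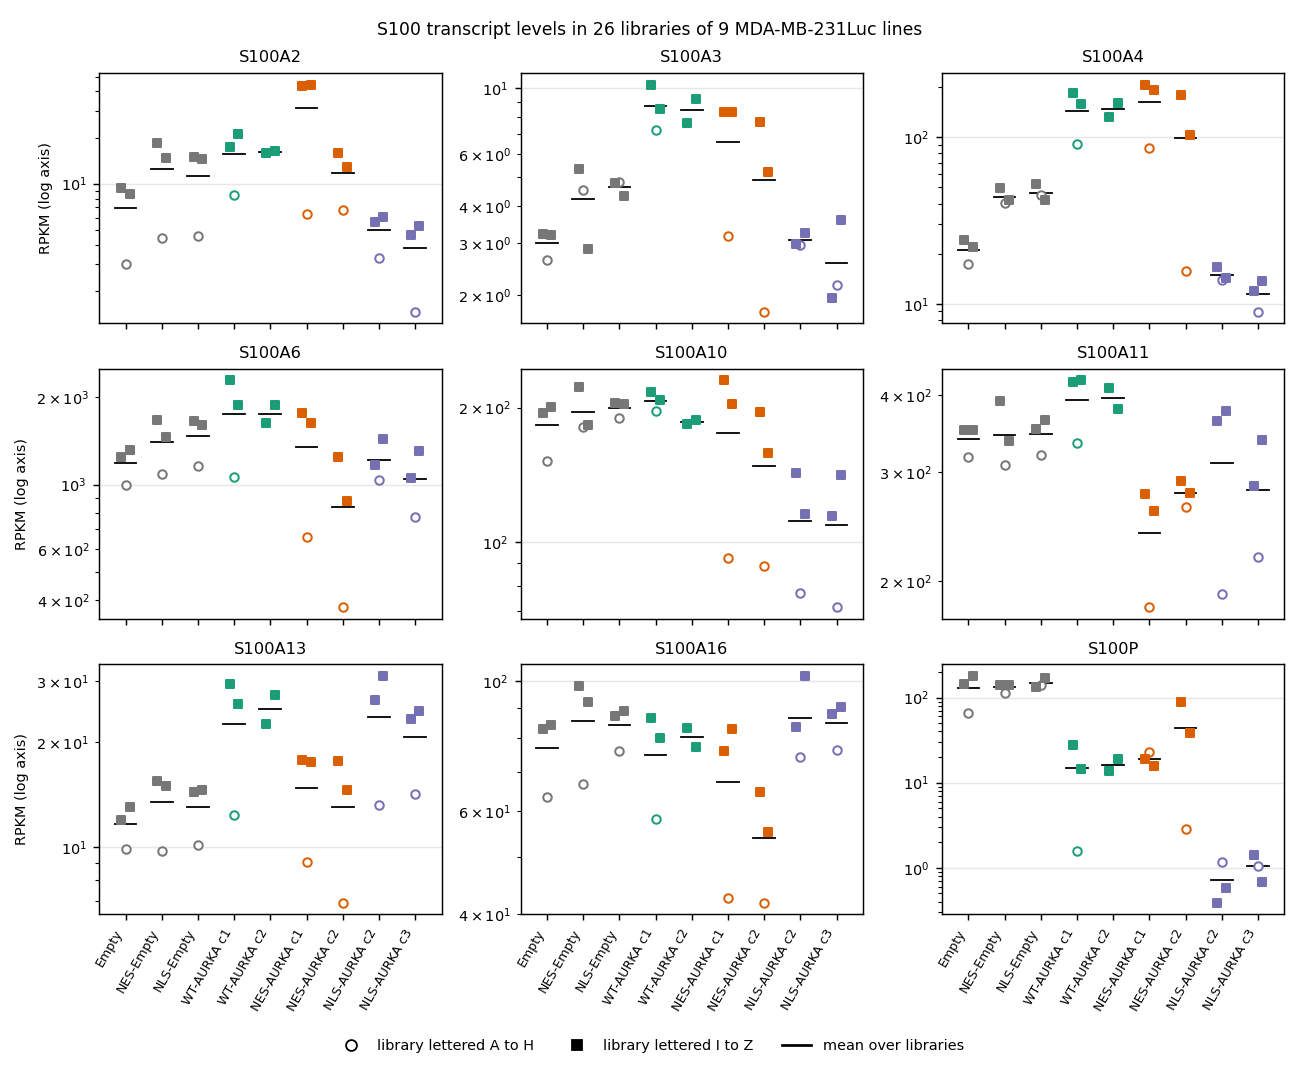
Level of each member in RPKM (log axis) in every library of the 9 lines; open circles are libraries lettered A to H, filled squares those lettered I to Z, and black bars the mean over a line's libraries. S100P lies between 66.1 and 181 RPKM in the control lines and at or under 1.40 RPKM in both NLS-AURKA clones, and S100A4 at 8.97 to 16.7 RPKM in the latter.

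S100P encodes a protein that binds ezrin (EZR) inside the cell and AGER outside it. In Empty it was at 66.1, 146.3 and 181 RPKM in libraries E, I and J, in NES-Empty at 112.6, 141.9 and 141.7 in C, K and L, and in NLS-Empty at 141.2, 132.4 and 171 in G, M and N. WT-AURKA c1 had 1.59, 28.0 and 14.5 RPKM in D, O and P, and WT-AURKA c2 had 13.8 and 18.8 in Q and R. NES-AURKA c1 had 22.8, 19.0 and 15.8 in F, S and T, and NES-AURKA c2 had 2.86, 89.8 and 38.1 in A, U and V. Library A was thus far under its line's other libraries, as D was in WT-AURKA c1. The NLS-AURKA clones had the lowest levels, at 1.17, 0.39 and 0.58 RPKM in H, W and X for c2 and 1.04, 1.40 and 0.68 in B, Y and Z for c3. All 6 clones lay below all 3 control lines by line mean, and all NLS-AURKA libraries lay below every other library.

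Across AURKA and control lines S100P was the single member of 9 called at an adjusted p under 0.05 in limma, where 19.2% of tested genes were called (8.85% higher and 10.4% lower). It was lower by a log2 difference of -4.04 (SE 0.85, 6 against 3 lines, adjusted p 0.00999), and in libraries I to Z by -3.89 (adjusted p 0.0336, with 17.3% called). An exact two-sided permutation test over lines gave p = 0.0119, the smallest that 6 against 3 lines allow. Without the line NLS-Empty the limma adjusted p was 0.0508 at a log2 difference of -3.96. S100P then divided the clones too: NLS-AURKA was below NES-AURKA by -3.57 (SE 0.21, adjusted p 1.63e-05) and below WT-AURKA by -2.87 (SE 0.21, adjusted p 6.14e-05). The SE of 0.21 rests on line means that include libraries A and D. Within libraries I to Z these limma values were -4.26 (SE 0.44, adjusted p 0.000263) and -3.47 (SE 0.44, adjusted p 0.000593), where 37.5% and 38.5% of tested genes were called. Within A to H, with 1 library per line, they were -2.19 and -0.30 and not called (adjusted p 0.141 and 0.895, with 7.83% and 3.07% called), and 1 of the 2 NES-AURKA libraries and the only WT-AURKA library there are A and D. At the estimated depth the NLS-AURKA levels rest on a few reads per library, so the size of the difference is less certain than its direction. EZR, the partner of S100P, was at 61.4 to 192 RPKM and not called between groups of lines, its largest difference being -0.63 in NLS-AURKA against WT-AURKA (limma adjusted p 0.0531, and called in 10 of 35 fits without 1 library or line), while AGER stayed at or under 0.92 RPKM and was not tested.

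S100A4, also called metastasin, binds the heavy chain of non-muscle myosin IIA (MYH9) and loosens its filaments. Its levels were 17.4, 24.1 and 22 RPKM in Empty (E, I, J), 40.2, 49.5 and 42.1 in NES-Empty (C, K, L) and 44.9, 52.2 and 42.2 in NLS-Empty (G, M, N). In WT-AURKA c1 they were 91.5, 184.2 and 158.2 (D, O, P), in WT-AURKA c2 132.9 and 161.5 (Q, R), in NES-AURKA c1 85.8, 207 and 193.2 (F, S, T), and in NES-AURKA c2 15.6, 178.6 and 103 (A, U, V). The NLS-AURKA clones had 13.9, 16.7 and 14.3 RPKM in c2 (H, W, X) and 8.97, 11.9 and 13.7 in c3 (B, Y, Z). WT-AURKA libraries were all above the controls, NES-AURKA libraries were too except A, and NLS-AURKA libraries were all below the controls. The Empty line lay below the other 2 control lines in every library.

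With clones on either side of the controls, S100A4 did not pass the test of AURKA against control lines (log2 difference 0.71, SE 0.85, limma adjusted p 0.596). Between constructs it passed. NLS-AURKA was lower than NES-AURKA by -2.86 (SE 0.42, adjusted p 0.00116) and lower than WT-AURKA by -3.36 (SE 0.42, adjusted p 0.000495), and both limma calls held without any single library or line. In libraries I to Z the values were -3.46 and -3.40. In A to H they were -1.64 and -2.93 without a call (limma adjusted p 0.249 and 0.145). NES-AURKA and WT-AURKA were not called different in S100A4 (-0.50, adjusted p 0.508), a value that was 0.06 in libraries I to Z, where 4.54% of tested genes were called in that comparison. MYH9, at 37.7 to 233 RPKM, was higher in NLS-AURKA than in NES-AURKA by 0.54 (limma adjusted p 0.0419) and than in WT-AURKA by 0.72 (0.0124), and without library B neither was called (0.27 and 0.45, adjusted p 0.462 and 0.216).

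S100A2 is a mostly nuclear member that binds p53. It was at 2.98, 9.32 and 8.53 RPKM in Empty, 4.41, 18.6 and 14.6 in NES-Empty and 4.54, 15 and 14.4 in NLS-Empty. WT-AURKA c1 had 8.41, 17.4 and 21 and c2 15.8 and 16.3, NES-AURKA c1 had 6.30, 43.2 and 44.4, and NES-AURKA c2 6.73, 15.9 and 12.8. NLS-AURKA c2 had 3.28, 5.64 and 6.05, and c3 1.46, 4.61 and 5.27. The first value of each trio is the A to H library, and it is the lowest in all 8 lines that have one. NES-AURKA c1 was the highest line through its libraries S and T, and every NLS-AURKA library lay below every WT-AURKA and NES-AURKA library. NLS-AURKA was lower than NES-AURKA by -1.76 (SE 0.32, limma adjusted p 0.00337) and than WT-AURKA by -1.68 (SE 0.32, adjusted p 0.00377), and no single library or line ended either call. In libraries A to H alone the values were -1.21 and -1.54 (adjusted p 0.0536 and 0.0676).

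S100A3 is a cysteine-rich, zinc-binding member best known from hair. It was the scarcest, at 2.63 to 5.34 RPKM in control libraries (median 4.34), 7.24 to 10.3 in WT-AURKA (8.54), 1.76 to 8.33 in NES-AURKA (6.47) and 1.95 to 3.60 in NLS-AURKA (2.97). WT-AURKA libraries were all above the controls and NLS-AURKA libraries all below WT-AURKA. NES-AURKA libraries spread over both ranges, with F and A the lowest at 3.18 and 1.76. NLS-AURKA was lower than WT-AURKA by -1.33 (SE 0.18, limma adjusted p 0.00072) whichever library or line was left out. It was lower than NES-AURKA by -0.70 (SE 0.18, adjusted p 0.0162), which was 0.06 in A to H, -1.09 in I to Z, and no longer called without library U, without NES-AURKA c1 or NLS-AURKA c3, or without a filter on low genes (adjusted p 0.143, 0.0613, 0.109 and 0.0776).

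S100A6, or calcyclin, binds CACYBP, a part of ubiquitin ligase complexes. It ranged from 997 to 1669 RPKM in control libraries (median 1320), 1066 to 2294 in WT-AURKA (1878), 377 to 1766 in NES-AURKA (1064) and 771 to 1432 in NLS-AURKA (1115). These ranges overlap, and S100A6 was not called on line means in any of the 4 comparisons between groups of lines. Its log2 difference between NLS-AURKA and WT-AURKA was -0.62 (SE 0.23, limma adjusted p 0.0617) and was called without library D (-0.78, adjusted p 0.0236), A or Q, without the line NES-AURKA c2 (0.00569), with a filter of 5 RPKM (0.0482) and without the mean-variance trend (0.046). In a fit to libraries with the line as a random block it was called there (-0.61, limma adjusted p 0.047) and in NES-AURKA against WT-AURKA (-0.82, adjusted p 0.0292). Without NES-AURKA c1 it was called in all 3 comparisons between constructs, at 0.57, -0.62 and -1.19 for NLS-AURKA against NES-AURKA, NLS-AURKA against WT-AURKA and NES-AURKA against WT-AURKA. CACYBP was at 17.8 to 64.7 RPKM and higher in NLS-AURKA than in NES-AURKA by 0.38 (limma adjusted p 0.0207), and 0.16 without library F (adjusted p 0.419).

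S100A10, or p11, does not need calcium and joins annexin A2 (ANXA2) in a complex at the plasma membrane that gathers plasminogen and its activator. It was at 152 to 222 RPKM in control libraries (median 194.5), 183.7 to 216 in WT-AURKA (196.4), 88.7 to 230.4 in NES-AURKA (177) and 71.5 to 142.6 in NLS-AURKA (115). NLS-AURKA libraries were all below the control and WT-AURKA libraries and overlapped NES-AURKA through F and A, at 92.1 and 88.7. S100A10 was lower in NLS-AURKA than in WT-AURKA by -0.87 (SE 0.12, limma adjusted p 0.000662), whichever library or line was left out, and than in NES-AURKA by -0.50 (SE 0.12, adjusted p 0.0105). The second call was lost without library U, H or B (adjusted p 0.0906, 0.0921 and 0.0837) and without either NLS-AURKA clone (0.0537 and 0.0661). ANXA2, at 75.5 to 283 RPKM, was higher in NLS-AURKA than in NES-AURKA by 0.46 (limma adjusted p 0.0173). Its difference was 0.29 without library F, and leaving out single libraries gave adjusted p from 0.00533 to 0.105. In AURKA against control lines ANXA2 was at 0.43 without a call (limma adjusted p 0.0653).

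S100A11 binds annexin A1 (ANXA1) and annexin A2 and takes part in membrane repair. It was at 309 to 390.4 RPKM in control libraries (median 350.4), 334 to 422 in WT-AURKA (410.1), 182 to 291 in NES-AURKA (270.1) and 191 to 376 in NLS-AURKA (312). All NES-AURKA libraries lay below all control and WT-AURKA libraries. S100A11 was lower in NES-AURKA than in WT-AURKA by -0.62 (SE 0.12, limma adjusted p 0.0242), and in NLS-AURKA than in WT-AURKA by -0.45 (SE 0.12, adjusted p 0.015), which was -0.27 in libraries I to Z (adjusted p 0.0813). Leaving out single libraries or lines ended the first call in 8 of 26 and 7 of 9 cases, with adjusted p up to 0.102 without library H and 0.139 without WT-AURKA c2, and the second in 4 of 26 and 3 of 9. ANXA1 was at 89.9 to 230 RPKM and was not called between groups of lines, with 0.38 in AURKA against control lines as its largest difference (limma adjusted p 0.0638).

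S100A13 takes part in the release of FGF1 and IL1A, proteins without a signal peptide, together with synaptotagmin 1 (SYT1). It was at 9.75 to 15.5 RPKM in control libraries (median 13), 12.4 to 29.4 in WT-AURKA (25.8), 6.90 to 17.8 in NES-AURKA (16.1) and 13.2 to 31.0 in NLS-AURKA (23.9). The lowest value of each clone was its A to H library, where there was one. NLS-AURKA exceeded NES-AURKA by 0.65 (SE 0.12, limma adjusted p 0.00324), a call that no single library or line ended and that libraries A to H alone also gave, and NES-AURKA was below WT-AURKA by -0.76 (SE 0.12, adjusted p 0.0134). The latter was not called without library O, F or H (adjusted p 0.0707, 0.0704 and 0.0542) or without WT-AURKA c2 (0.116). Against the controls the AURKA lines were higher by 0.53 without a call (SE 0.20, limma adjusted p 0.0941), by 0.65 with a call in libraries I to Z (adjusted p 0.0384), by 0.60 with a call without library A (0.0316), by 0.66 without A and D (0.0414), by 0.65 without the line NES-AURKA c2 (0.0222), and without a call in A to H, where 11.6% of tested genes were called. Between NLS-AURKA and WT-AURKA S100A13 differed by -0.11 without a call, and by -0.29 with a call without library D (limma adjusted p 0.0452). Transcripts of the 3 genes named with it were higher in NLS-AURKA than in WT-AURKA: IL1A by 1.79 (limma adjusted p 0.00135), FGF1 by 0.74 (0.00171) and SYT1 by 0.34 (0.0484, and 0.163 without library F). FGF1 and SYT1 reached 2.44 and 2.26 RPKM at most.

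S100A16 is a widely expressed member. It was at 63.5 to 98.1 RPKM in control libraries (median 84.0), 58.1 to 86.5 in WT-AURKA (79.9), 41.8 to 82.7 in NES-AURKA (59.9) and 74.1 to 102 in NLS-AURKA (85.6), with all groups overlapping by library. It was higher in NLS-AURKA than in NES-AURKA by 0.53 (SE 0.12, limma adjusted p 0.00788), and by 0.39 without library F, where it was not called (adjusted p 0.102). The call was also lost without the line NLS-AURKA c2 (0.52, limma adjusted p 0.0527).

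**Figure D2:**
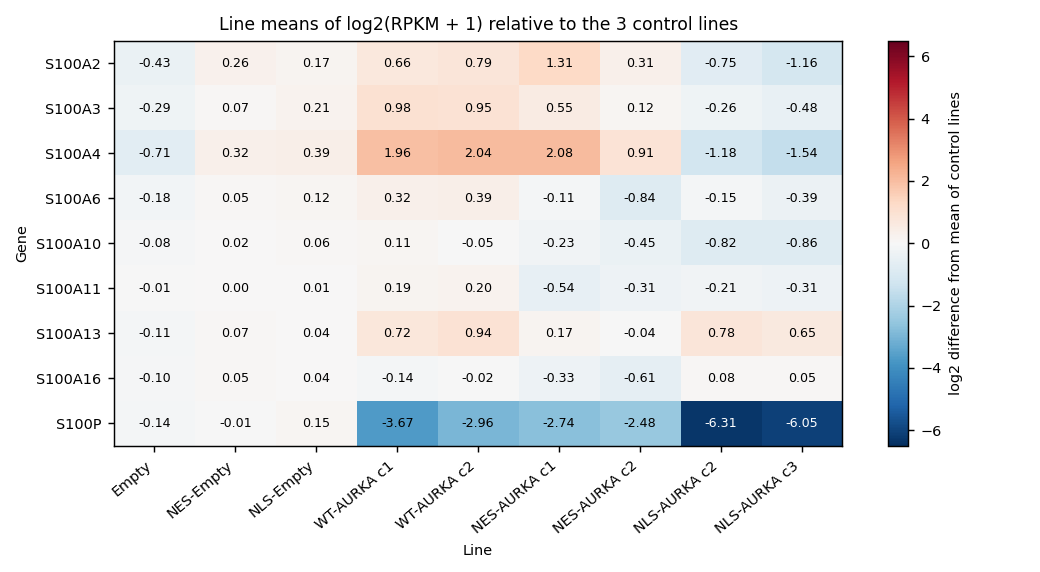
Log2 difference of each line mean from the mean of the 3 control lines, on the scale log2(RPKM + 1), for the 9 genes (vertical) in the 9 lines (horizontal). S100P is at -2.48 to -3.67 in the WT-AURKA and NES-AURKA clones and at -6.05 and -6.31 in the NLS-AURKA clones, and S100A4 changes sign between these constructs.

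Counted over the family, 0 members were higher and 1 lower in AURKA than in control lines. In NLS-AURKA against NES-AURKA 2 were higher and 5 lower, where limma called 33.2% of tested genes (19.1% higher and 14.1% lower). In NLS-AURKA against WT-AURKA 0 were higher and 6 lower, where 36.1% were called (18.7% higher and 17.4% lower), and these 2 comparisons share the NLS-AURKA lines. In NES-AURKA against WT-AURKA 0 were higher and 2 lower, where 4.87% were called (1.56% higher and 3.3% lower) and 0% in libraries A to H. The median log2 difference of the 9 was -0.13, -0.50, -0.87 and -0.50 in these comparisons, against -0.02, 0.05, 0.01 and -0.03 over all tested genes. In libraries I to Z the counts were 1 higher and 1 lower, 2 and 5, 0 and 5, and 0 and 2. There 17.3%, 37.5%, 38.5% and 4.54% of tested genes were called. In A to H, with fewer libraries, 0 were higher and 1 lower in AURKA against control lines, where 11.6% were called. In NLS-AURKA against NES-AURKA 2 were higher and 0 lower there, where 7.83% were called. Comparisons with WT-AURKA rest on its only library in that set. Without library D, which is labelled WT-AURKA c1, NES-AURKA was also called lower than WT-AURKA in S100A3 (-0.68), S100A6 (-0.99), S100A10 (-0.39) and S100A16 (-0.47). S100A3, S100A6, S100A10, S100A16 and, as higher, S100P were called in this comparison without the line NES-AURKA c1, S100A3, S100A6 and S100A10 without library S, and S100A3, S100A6 and S100A16 without library T, so its calls near the threshold depended on several libraries. S100P was also called higher there without library R (0.81) and with a letter-set term (0.87). The number of all tested genes called in this comparison also varied widely when single libraries or lines were left out. These extra calls therefore cannot be read as particular to the members.

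**Figure D3:**
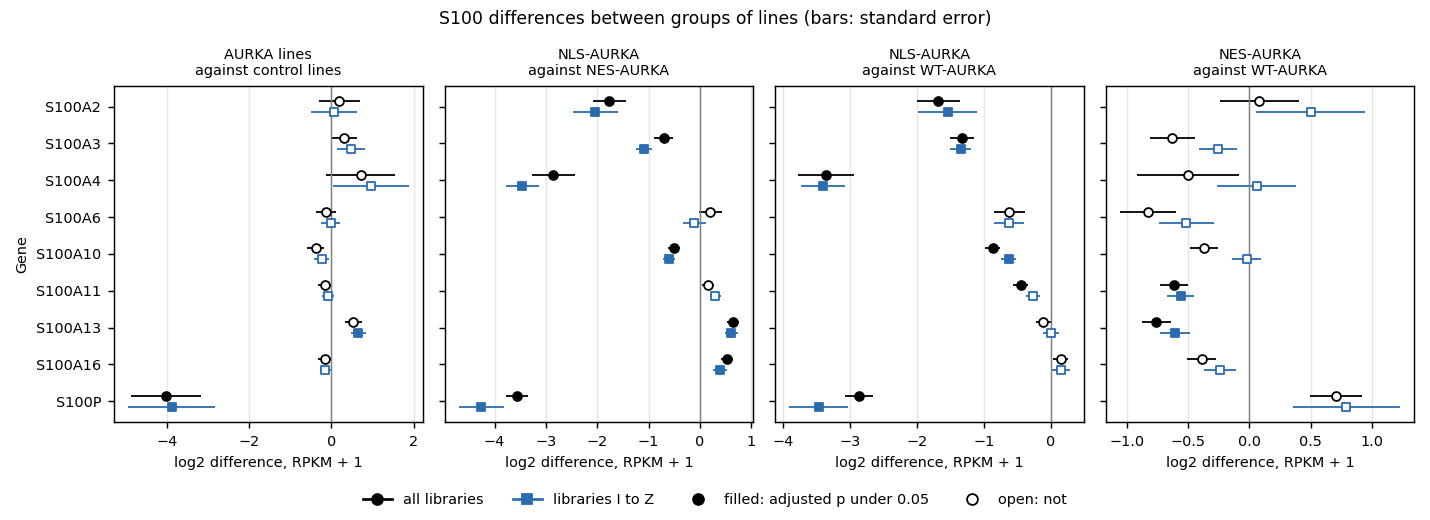
Log2 differences of the 9 genes in 4 comparisons between groups of lines (horizontal axis, log2(RPKM + 1); bars are standard errors), from all libraries (black) and from libraries I to Z (blue); filled symbols have a limma adjusted p under 0.05. S100A4 and S100P lie furthest from 0 in NLS-AURKA against NES-AURKA, at -2.86 and -3.57.

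Each clone was next set against the control line with the same signal, in a fit to single libraries, where p-values rest on how far libraries within a line differ. A call also needed a log2 difference of at least 1 in size, in the same direction in both clones. In WT-AURKA against Empty 2 of 9 members were called, where 2.62% of tested genes were: S100A4 was higher by 2.67 (SE 0.54) in c1 and 2.75 (SE 0.60) in c2, and S100A3 by 1.26 and 1.23. Empty had the lowest S100A4 and S100A3 of the control lines, and leaving out library Q or R, which leaves WT-AURKA c2 with 1 library, ended the S100A4 call (limma adjusted p 0.0536 and 0.0959); the S100A3 call was lost in 9 of 26 such fits. S100P was lower by -3.53 (limma adjusted p 0.00603) and -2.83 (adjusted p 0.0608), and in libraries I to Z, where 3.68% of tested genes were called, both clones passed. They also did without library A, D, O or U (limma adjusted p 0.00733, 0.0483, 0.0486 and 0.0302). In NES-AURKA against NES-Empty none of 9 passed in both clones, where 1.7% of tested genes did, although c1 alone passed in S100A4 (1.76, limma adjusted p 0.0314) and S100P (-2.73, adjusted p 0.0264). In libraries I to Z both clones passed for both genes, with S100A4 at 2.11 and 1.55 and S100P at -2.96 and -1.26, where 2.26% of tested genes were called. Without library A both NES-AURKA clones passed in S100A4 (mean 1.69), and without library D, O or U both passed in S100P (limma adjusted p 0.0268, 0.0491 and 0.0122).

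In NLS-AURKA against NLS-Empty 2 of 9 members were called, where 4.51% of tested genes were. S100P was lower by -6.46 (SE 0.81) in c2 and -6.20 (SE 0.81) in c3, whichever library was left out. S100A4 was lower by -1.57 (SE 0.54, limma adjusted p 0.0489) and -1.93 (SE 0.54, adjusted p 0.0173), and its call lay so near the threshold that it was lost in 22 of 26 fits without 1 library, with adjusted p up to 0.132. In libraries I to Z its adjusted p were 5.94e-05 and 2.15e-05, and S100A2 was called there as well, at -1.20 and -1.40, with 4.77% of tested genes called.

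The effects of the constructs against their own controls were then compared with each other in the same fit. S100A4 moved in opposite directions, by -1.75 in NLS-AURKA and 1.18 in NES-AURKA, a difference of -2.93 (SE 0.66, limma adjusted p 0.00876, with 3.03% of tested genes called). Against the 2.71 of WT-AURKA the difference was -4.46 (SE 0.67, adjusted p 0.000235, with 3.66% called). S100P fell in both, by -6.33 in NLS-AURKA and -2.60 in NES-AURKA, a difference of -3.74 (SE 0.99, adjusted p 0.0243), and S100A3 differed between NLS-AURKA and WT-AURKA by -1.83 (SE 0.41, adjusted p 0.00714). With a term for the letter set, the limma adjusted p of these 4 were 0.00032, 7.11e-06, 0.0034 and 0.000937. The term also brought other differences under 0.05 in limma. These were S100A2 against NES-AURKA and WT-AURKA (-1.67 and -2.28 without the term, adjusted p 0.000524 and 8.87e-05 with it). Against WT-AURKA they were also S100P (-3.15 without the term, limma adjusted p 0.0157 with it) and S100A10 (-1.01 and 0.011 likewise). Differences under 1 in size in the fit without the term also came under 0.05. They were S100A13 (0.0107) and S100A16 (0.0116) against NES-AURKA, S100A6 (0.0362) against WT-AURKA, and S100A13 between NES-AURKA and WT-AURKA (0.0241). With the term, differences from WT-AURKA can change in size, because WT-AURKA c2 has no A to H library. Their sizes with it are not given here, so whether S100A10 still reached 1 is not shown. How many of all tested genes the term brought under 0.05 was not counted. Without the term no member passed between NES-AURKA and WT-AURKA, where 0.246% of tested genes did.

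Lines next to each other in the order of levels were mostly not separated. The pairs were picked by the order of the same line means that were then compared. No such count was made over all tested genes, so whether the number passing is unusual is not known. Of the 72 neighbouring pairs over the 9 genes, 0 passed in limma without a letter-set term (2 had an unadjusted p under 0.05) and 2 with it (9 unadjusted). Both were in S100P: between NLS-AURKA c3 and WT-AURKA c1, 2.38 apart (SE 0.69), and between NES-AURKA c2 and Empty, 2.35 apart (SE 0.69). Without the term these 2 steps were not called (limma adjusted p 0.0633 and 0.082), and WT-AURKA c1 includes library D. By line means of log2(RPKM + 1), S100P rose from the NLS-AURKA clones through the other 4 clones to the controls. S100A4 rose from the NLS-AURKA clones through Empty, NES-Empty and NLS-Empty to NES-AURKA c2, WT-AURKA c1, WT-AURKA c2 and NES-AURKA c1 without a called step between neighbours. Between clones of 1 construct, the single called difference was in S100A2 with a letter-set term, where NES-AURKA c2 was below c1 by -1.01 (limma adjusted p 0.00705, with 1.44% of tested genes called, and 1.08% without the term).

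Along 1q21, S100A4, S100A3 and S100A2 follow each other among the S100 genes in the RefSeq order. LOC101928034, which is not in the expression table, lies between S100A4 and S100A3. All 3 members were lower in NLS-AURKA than in both other constructs. So was S100A10, which lies apart from them. On their sides lie S100A5 and S100A6, and S100A16, S100A14 and S100A13. S100A5, at most at 3.03 RPKM, differed by -0.23 from NES-AURKA and by -0.32 from WT-AURKA without a call, S100A14 by 0.09 and -0.01 without a call, and S100A16 and S100A13 were higher than in NES-AURKA. FLG was the nearest tested gene of another family on the S100A9 side (-0.11 against NES-AURKA, not called), with THEM4 (0.41) and TDRKH (0.68) beyond S100A11 and S100A10. On the S100A1 side the nearest tested genes were CHTOP (0.51), SNAPIN (0.22), ILF2 (0.74), INTS3 (0.40) and GATAD2B (0.68). Of these 8, 6 were called higher in NLS-AURKA than in NES-AURKA and none lower, SNAPIN and FLG being the 2 without a call. Among all tested genes 19.1% were called higher and 14.1% lower there, and 18.7% and 17.4% against WT-AURKA. Whether the flanking genes differ as a set was not tested. Against WT-AURKA TDRKH (0.43), CHTOP (0.31) and GATAD2B (0.60) were called higher, FLG (-0.36) and SNAPIN (-0.41) lower, and THEM4 (-0.02), ILF2 (0.21) and INTS3 (0.17) were not called.

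**Figure D4:**
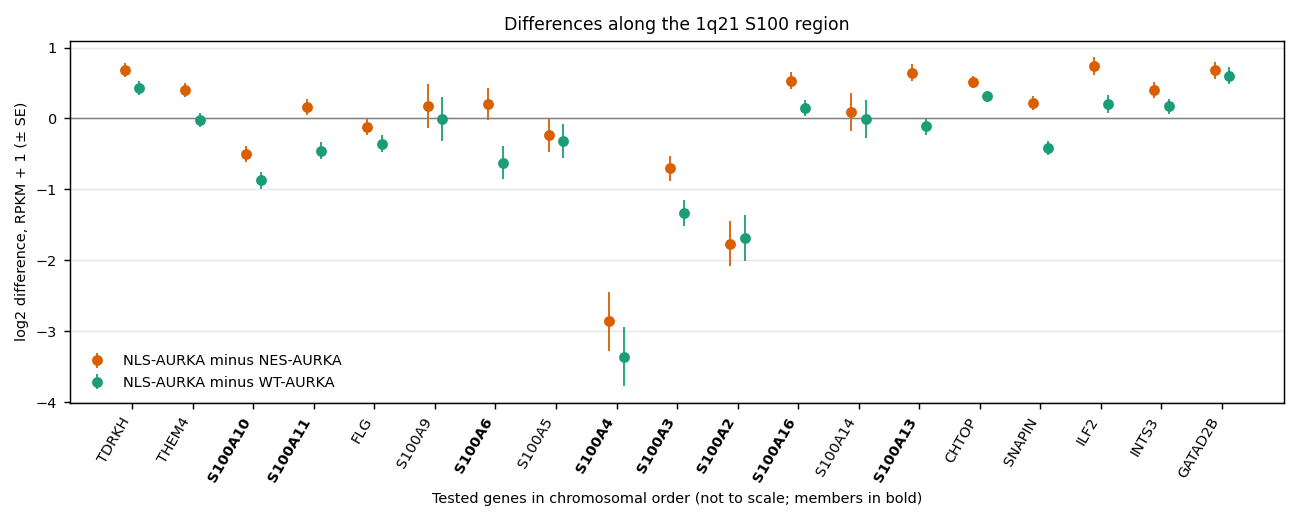
Log2 difference (± SE) of NLS-AURKA from NES-AURKA (orange) and from WT-AURKA (green) for tested genes of the 1q21 S100 region and its flanks, in chromosomal order and not to scale, members in bold. S100A4, S100A3 and S100A2 stand next to each other at -2.86, -0.70 and -1.76 against NES-AURKA.

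Across the 9 line means S100A4 varied with S100A2 (Pearson r 0.97) and S100A3 (0.95), while S100P varied with S100A10 (0.79) and against S100A13 (-0.75). In libraries I to Z alone the same correlations were 0.87, 0.97, 0.80 and -0.84. These are descriptions over 9 points that share libraries, letter sets and scaling, and lines of 1 construct are not independent of each other. Among 704 genes with an SD between lines of at least 0.5 and at least 5 RPKM in 1 line, those most like S100P were PDLIM4 (0.99), TNS4 (0.99) and MISP (0.98). TNS4, for example, was at 36.0 to 53.4 RPKM by line in controls, 4.73 to 13.4 in the WT-AURKA and NES-AURKA clones and 0.05 to 0.09 in the NLS-AURKA clones. Among those most like S100A4 were S100A2 and IDS (0.96), and most like S100A2 were S100A4, AGR2 (0.94) and ACSL1 (0.92). In libraries I to Z alone, PDLIM4, TNS4 and MISP were at 0.94, 0.97 and 0.93 with S100P, and IDS at 0.96 with S100A4. There AGR2 was at 0.88 and ACSL1 at 0.72 with S100A2.

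Of 12 other S100 genes 9 were in the table and 3, S100A5, S100A9 and S100A14, reached 1 RPKM in 2 libraries; none was called between groups of lines. S100A8 and S100B stayed at or under 0.70 and 0.04 RPKM. Of 14 annexins, the calcium-dependent membrane binders that S100 dimers join, 11 were tested. In AURKA against control lines ANXA6 was higher (1.26, limma adjusted p 0.0122) and ANXA8 (-0.99) and ANXA8L1 (-0.60), near-identical copies whose reads may be split, were lower. In NLS-AURKA against NES-AURKA 4 of 11 were higher and 0 lower, where 33.2% of all tested genes were called (19.1% higher and 14.1% lower), namely ANXA3 (1.05), ANXA10 (0.79), ANXA6 (0.49) and ANXA2 (0.46). In NLS-AURKA against WT-AURKA ANXA6 (1.19), ANXA10 (0.84) and ANXA3 (0.55) were higher and ANXA5 (-0.74) and ANXA11 (-0.42) lower, and in NES-AURKA against WT-AURKA ANXA6 was higher (0.71) and ANXA5 lower (-0.55). Of these 14 calls 5 held in all 35 fits without 1 library or line: ANXA3 and ANXA10 against NES-AURKA, and ANXA10, ANXA6 and ANXA5 in NLS-AURKA against WT-AURKA. ANXA10 and ANXA8L1 reached 1.60 and 1.75 RPKM at most, so the size of their differences is uncertain.

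Of 26 binding partners and receptors of S100 proteins 25 were tested. TLR4, a receptor of released S100 proteins, was higher in AURKA than in control lines (1.39, limma adjusted p 0.00236), as were PLAUR, the urokinase receptor (0.96), PPFIBP1, a liprin that binds S100A4 (0.81), and SYT1 (0.60), while PLGRKT, a plasminogen receptor, was lower (-0.41). Between NLS-AURKA and NES-AURKA 8 of 25 partners were higher and 4 lower, where 19.1% and 14.1% of all tested genes were. Highest were PLAT, the plasminogen activator that the S100A10 complex gathers (1.48), and IL1A (1.44), followed by METAP2 (0.56), MYH9, NCL (0.48), CACYBP, FGF1 (0.36) and PLAUR (0.34). Lowest was DLC1, a tumour suppressor that binds S100A10 (-2.73), followed by the protease CTSB (-1.54), BSG, a receptor (-0.93), and MDM2, the p53 ligase (-0.30). Between NLS-AURKA and WT-AURKA 8 were again higher and 4 lower, where 18.7% and 17.4% of all tested genes were: PLAT (0.98), PLAU (0.74), NCL (0.63) and METAP2 (0.61) rose with IL1A, FGF1, MYH9 and SYT1, and DLC1 (-2.87), CTSB (-2.00), BSG (-1.21) and TLR4 (-0.78) fell. Between NES-AURKA and WT-AURKA SYT1 alone was called, higher by 0.60. Of these 30 calls 16 held in all 35 fits without 1 library or line, among them every call of TLR4, PLAUR and PPFIBP1 in AURKA against control lines and of DLC1, CTSB, BSG, PLAT, IL1A and METAP2 in both comparisons of NLS-AURKA. SYT1 in NLS-AURKA against WT-AURKA was lost in 25 of the 35, MYH9 against NES-AURKA in 23 and FGF1 against NES-AURKA in 19.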

How the data were processed

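RNA was sequenced from 26 libraries of 9 lines. The authors deposited 1 table of RPKM values; neither its header nor the labels name the unit, which comes from a description of the table. Build hg19 and the tools HISAT2, SAMtools and Partek are listed, per the submitters' processing notes, while versions, annotation and strand setting were not given in the sources. Values were analysed as log2(RPKM + 1) with limma 3.58.1 in R 4.3.3 with a mean-variance trend, for 12589 genes with at least 1 RPKM in at least 2 libraries. Comparisons between groups of lines used 1 mean per line (arms, or control, WT, NES and NLS) with a Benjamini-Hochberg adjusted p under 0.05; single lines used a fit to 26 libraries and also a log2 difference of at least 1. Data were simulated at each gene's mean over all lines, with its spread between lines of the same group (control, WT, NES or NLS). There limma called 98% of 100 genes changed by 1 log2 unit in AURKA against control lines, and 87% in NLS-AURKA against NES-AURKA. The genes simulated as changed in AURKA lines did not differ between constructs, so the 98% does not apply to members that do. Depth was estimated from the commonest value times transcript length of low genes with 1 GENCODE transcript, which gives counting precision only roughly. The members and all gene lists were chosen with earlier results of these data known. Every member was named in every comparison; of other lists, the genes called between groups of lines and 6 fixed partners (ANXA1, ANXA2, AGER, CACYBP, MYH9, EZR); and the 3 genes most correlated with the 3 most variable members (1 of these genes is not reported here). Alternatives covered pseudocount, filters, scaling, letter sets, variance model and left-out libraries or lines.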

Additional observations from a re-analysis of the deposited data

Results flagged for a closer look

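The effects of the constructs against their own control lines differed in 4 cases in a limma fit to 26 libraries. Of all tested genes, 3.03% were called between NLS-AURKA and NES-AURKA and 3.66% between NLS-AURKA and WT-AURKA. The p-values here rest on how much libraries within each line vary. That variation may be technical, so these calls do not measure how far separate clones of 1 construct differ. S100A4 differed between NLS-AURKA and NES-AURKA by -2.93 and between NLS-AURKA and WT-AURKA by -4.46. S100P differed between NLS-AURKA and NES-AURKA by -3.74, and S100A3 between NLS-AURKA and WT-AURKA by -1.83. Guide and cDNA label differ with the nuclear signal in all 4 and cannot be told apart from it.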

How the results depend on the processing

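Each construct has 2 lines. No paired analysis was possible because the title letters that number the libraries are shared by no 2 lines. Under pseudocount 0.1 all 63 member results kept direction and side of the threshold, and under median-of-ratios scaling 61 of 63. With libraries I to Z alone 52 of 63 did, with a letter-set term 58 of 63, and with A to H alone 19 of 36, where 11 lost their call and 6 changed sign. Genes counted in both clones rose to 609 (WT-AURKA against Empty), 441 (NES-AURKA against NES-Empty) and 1024 (NLS-AURKA against NLS-Empty) with pseudocount 0.1. In libraries A to H alone, which give fewer samples, the counts between groups were 1455 (AURKA against control), 986 (NLS-AURKA against NES-AURKA), 387 (NLS-AURKA against WT-AURKA) and 0 (NES-AURKA against WT-AURKA, limma, with 1360 at an unadjusted p under 0.05); the line as a random block gave 1273 for the last. Leaving out single libraries or lines gave 915 to 2669, 2250 to 5473, 2509 to 6267 and 20 to 2705 for these 4, and 198 to 360 for WT-AURKA against Empty.

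Among values named above, signs changed as follows, and the cause was not tested. Called before were S100A3, FGF1 and PLAUR in NLS-AURKA against NES-AURKA and MYH9 in NLS-AURKA against WT-AURKA; the others had not been. In A to H alone, AURKA against control lines gave S100A3 -0.245 and S100A4 -0.181; NLS-AURKA against NES-AURKA gave S100A3 0.0633, S100A11 -0.098, FGF1 -0.00311, PLAUR -0.105 and ANXA1 0.0297. NLS-AURKA against WT-AURKA gave S100A13 0.134, MYH9 -0.0847 and ANXA2 -0.466 there, and NES-AURKA against WT-AURKA S100A2 -0.325 and MYH9 -0.395. In I to Z alone CACYBP was at -0.134 in AURKA against control lines, S100A6 at -0.113 in NLS-AURKA against NES-AURKA and S100A13 at 0.00163 in NLS-AURKA against WT-AURKA. In NES-AURKA against WT-AURKA that set gave S100A4 0.0585, ANXA1 0.122, CACYBP 0.0117 and MYH9 -0.042. A letter-set term gave S100A13 0.0181 in NLS-AURKA against WT-AURKA, and ANXA1 0.0503, CACYBP 0.0513 and MYH9 -0.122 in NES-AURKA against WT-AURKA, where ANXA1 was at 0.037 and 0.0179 under median-of-ratios and quantile scaling. Without libraries A and D, an alternative chosen after seeing the data, S100A6 was at 0.00582 in AURKA against control lines and -0.0407 in NLS-AURKA against NES-AURKA. For clones against their control, S100A13 in NES-AURKA was at 0.0581 (median-of-ratios), 0.05002 (quantile), 0.134 (I to Z) and 0.183 (without A and D); in WT-AURKA S100A10 was at -0.00655 (quantile) and S100A16 at -0.0231 (quantile), -0.0296 (I to Z) and -0.0589 (letter-set term).

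Leaving out single libraries or lines gave S100A2 -0.0306 to 0.463, S100A6 -0.234 to 0.0127 and CACYBP -0.0673 to 0.173 in AURKA against control lines. It gave S100A6 -0.161 to 0.57, ANXA1 -0.406 to 0.0726 and EZR -0.839 to 0.0254 in NLS-AURKA against NES-AURKA, and S100A13 -0.295 to 0.0648 and ANXA2 -0.0583 to 0.293 in NLS-AURKA against WT-AURKA. In NES-AURKA against WT-AURKA it gave S100A2 -0.421 to 0.585, S100A4 -1.08 to 0.0816, ANXA1 -0.276 to 0.203, CACYBP -0.236 to 0.106, EZR -0.656 to 0.209 and MYH9 -0.12 to 0.538. Against the matched control it gave S100A10 -0.0113 to 0.187 and S100A16 -0.114 to 0.0995 in WT-AURKA, S100A2 -0.0187 to 0.982 and S100A13 -0.200 to 0.183 in NES-AURKA, and S100A16 -0.0465 to 0.0752 in NLS-AURKA. Depth limits S100P in NLS-AURKA, near 1 RPKM.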
